A study of Drosophila melanogaster with 3 samples.

Results

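The genes described here encode subunits of the proteasome. They were chosen by name from tables of ChIP-seq peaks for the remodeler SMARCAD1 and the acetyltransferase CBP, as all genes of the tables whose name starts with Pros (followed by a digit, alpha, beta or Mov), Rpn or Rpt with a digit. The rule took 26 of the 6016 genes that have an entry in either table, 15 of 4338 in the SMARCAD1 table and 24 of 4733 in the CBP table. These genes hold 55 of 12354 entries. All 26 names matched a proteasome gene of the RefSeq names, 24 of them a subunit of the common particle and 2 a second copy of such a subunit. A further 3 subunits stand in the tables under other names (CG17331, CG13349 and Mov34) and are given at their place below.

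The chromatin came from S2 cells, a macrophage-like line from embryos of Drosophila melanogaster, grown at 26 °C. All samples shared 1 treatment: dsRNA of EGFP, the control dsRNA of the knockdowns, was added for 6 h without serum, and the cells were then cultured for 72 h in medium with serum. There was 1 library with anti-SMARCAD1 (ASNA) antibodies, 1 with anti-CBP antibodies and 1 of input DNA without antibody, of which no table was used here. Both antibodies came from rabbits, the former raised against the whole SMARCAD1 protein of the fly and the latter against a part of CBP. No knockdown of either protein is among these samples. The tables list 3211 SMARCAD1 and 3762 CBP peaks by position, without reads, scores or P values. Depth is therefore unknown, a start without a peak cannot be told apart from one below the limit of calling, and no test was made. Nor can weak or falsely called peaks be told apart from strong ones. The main shares of covered starts and ends carry Wilson 95% intervals, which treat genes as independent and cover counting error only. The other shares carry none, and those of the proteasome genes rest on few genes.

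The 26S proteasome degrades proteins that carry ubiquitin chains. Its 20S core is a barrel of alpha rings, which gate the entrance, and beta rings, which hold the proteolytic sites. The 19S particle on its ends recognizes the chain, removes it and feeds the unfolded protein into the core. Its base contains a ring of ATPases (Rpt) and receptors for ubiquitin, and its lid contains the deubiquitinase Rpn11. The subunits are needed in fixed proportions, and their genes are scattered over the chromosomes rather than clustered. SMARCAD1 is a Snf2-type ATPase that moves nucleosomes, and CBP is a histone acetyltransferase found at active promoters and enhancers.

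CBP peaks lay over the start of most of these genes, and SMARCAD1 peaks over the start of a minority. A start was counted as covered when the first base of the gene lies within a peak. CBP covered 21 of the 26 starts (80.8%, 62.1 to 91.5%), and SMARCAD1 covered 9 (34.6%, 19.4 to 53.8%). Among the other 5990 genes with an entry, CBP covered 59.8% of starts and SMARCAD1 46.0%. The order of the antibodies was the same for both groups of genes, and the gap was wider at the proteasome genes. The SMARCAD1 interval includes the share of the other genes, and the CBP interval lies just above it. This narrow margin depends on the rule by name, because the 26 genes include 2 second copies, both covered by CBP. Without these, and with the subunits under other names, CBP covered 21 of 27 genes, for which no interval was computed. Among the 2961 other genes of the same range of length, 914 to 3797 bp, the shares were close to those of all genes, with 61.1% for CBP and 48.1% for SMARCAD1. These contrasts depend on the rule of counting. The annotation labels a nearest start for each peak, which is not always the start nearest to the centre. With that entry alone, CBP covered 42.3% of the proteasome starts (25.5 to 61.1%) against 37.3% of the others. With the central 500 bp of each peak, SMARCAD1 covered 15.4% (6.15 to 33.5%) against 15.9%, and CBP 50% (32.1 to 67.9%) against 27.6%. With a peak centre within 500 bp of the start, CBP covered 69.2% (50 to 83.5%) against 42.1%. SMARCAD1 then covered 23.1% (11 to 42.1%) against 26.2%. Both antibodies covered 7 starts (26.9%, 13.7 to 46.1%, against 31.6% of other genes), and CBP alone covered 14 (53.8%, 35.5 to 71.2%, against 28.2%). SMARCAD1 alone covered 2 (7.69%, 2.14 to 24.1%, against 14.4%), and neither covered 3 (11.5%, 4 to 29%, against 25.8%). Only the interval of CBP alone excludes the share of the other genes. The 7 genes covered by both were Pros28.1, Prosalpha7, Prosbeta2, Prosbeta3, Rpn2, Rpn5 and Rpn12. The 2 covered by SMARCAD1 alone were Pros45 and Rpn7, and the 3 without a peak over the start were Pros26, Prosbeta7 and Rpn3.

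**Figure D1:**
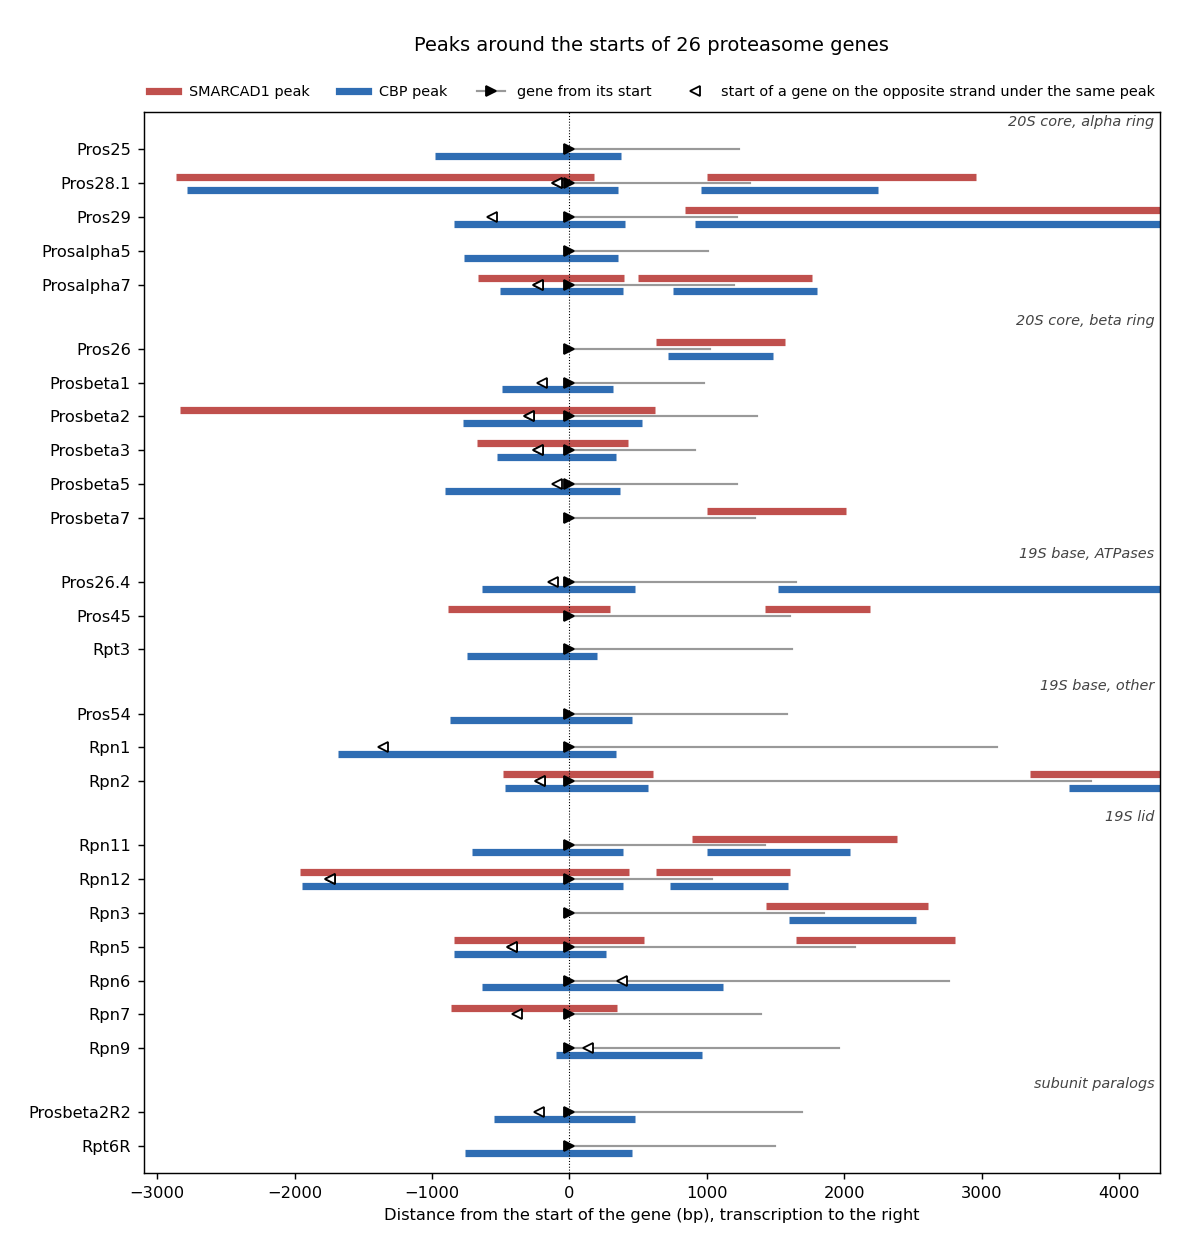
Each line is 1 of the 26 genes, drawn from its start at 0 with transcription to the right; the horizontal axis is the distance from the start in bp. Red bars are SMARCAD1 peaks and blue bars CBP peaks assigned to the gene, and open triangles mark the start of a gene on the opposite strand under the same peak. CBP bars cross the start of 21 genes and red bars that of 9, and further bars lie over the ends of 12 genes; entries farther from the start are not drawn.

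The rule only takes genes with an entry, so the complete set of subunits was also counted. Of 33 subunits, 27 have an entry, and CBP covered the start of 21 (63.6%, 46.6 to 77.8%) and SMARCAD1 that of 10 (30.3%, 17.4 to 47.3%). Over the other 13900 protein-coding genes of the reference names, it was 24.0% for CBP and 17.9% for SMARCAD1. The interval for CBP at the subunits lies above the share of all genes, whereas that for SMARCAD1 includes it at its lower end. The subunits without an entry in either table were Prosalpha1 and Prosalpha6 of the alpha ring, the ATPases Rpt1, Rpt4 and Rpt5, and Sem1 of the lid. Second copies of subunit genes, several of which are known from the testis, mostly had no entry. Of 16 such genes, CBP covered the start of 2 (12.5%, 3.50 to 36.0%) and SMARCAD1 of 0 (0 to 19.4%). Both intervals include the shares of the other protein-coding genes, 24.0% and 17.9%.

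**Figure D2:**
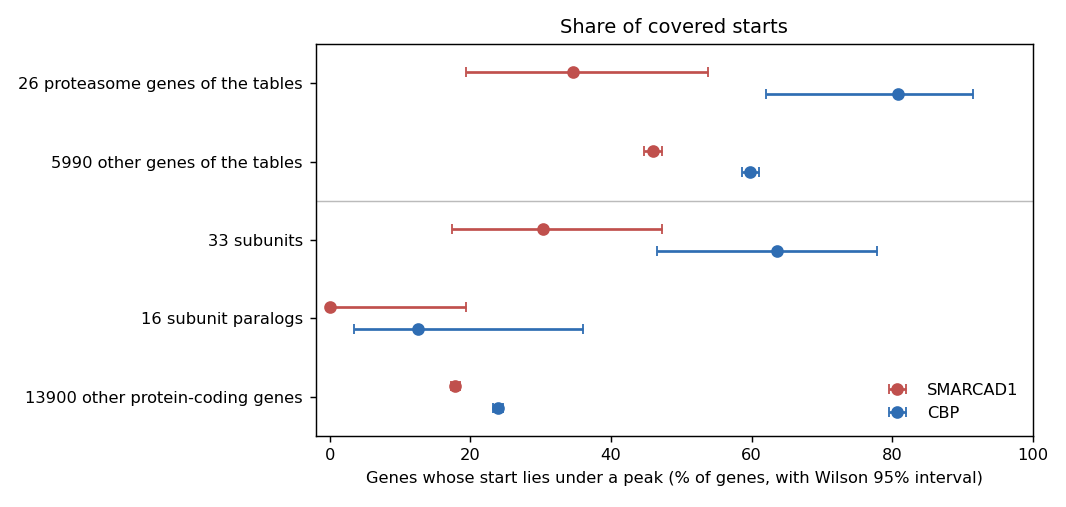
Share of genes whose start lies under a SMARCAD1 (red) or CBP (blue) peak, in % of the genes of each group on the left, with Wilson 95% intervals. The upper groups are conditional on an entry in the tables, with 80.8% for CBP at the proteasome genes, and the lower groups are not, with 63.6% for CBP at the 33 subunits and 24.0% at other protein-coding genes.

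In the alpha ring of the core, CBP covered the start of 5 of 7 genes and SMARCAD1 of 2. The distance is given from the start to the centre of the peak, negative upstream. The CBP centre lay at -299 bp at Pros25 (now Prosalpha2), at -219 bp at Pros29 (Prosalpha3) and at -207 bp at Prosalpha5. At these 3 genes no SMARCAD1 peak reached the start, and the nearest one began 991, 845 and 4574 bp away. At Prosalpha7 the SMARCAD1 centre lay at -133 bp and the CBP centre at -55 bp, and the whole CBP peak of 896 bp lay within the SMARCAD1 peak. Pros28.1 (Prosalpha4) had the most distant centres of the alpha ring, at -1341 bp for SMARCAD1 and -1213 bp for CBP. Its peaks, 3039 and 3136 bp wide, extended upstream into kat80, a subunit of the microtubule-severing katanin, and reached only 178 and 354 bp into the proteasome gene.

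In the beta ring, all 7 genes have an entry, and CBP covered 4 starts and SMARCAD1 2. These 4 include the genes of all 3 proteolytic subunits, Prosbeta1, Prosbeta2 and Prosbeta5, with CBP centres at -88, -126 and -268 bp. Of the proteolytic subunits, SMARCAD1 covered the start of Prosbeta2 alone. Its peak there was 3461 bp wide, against 1304 bp for CBP, and contained the whole divergent gene mRpL39, a mitochondrial ribosomal protein. The nearest SMARCAD1 peak was 21673 bp from the start of Prosbeta1 and 1926 bp from that of Prosbeta5. At Prosbeta3, a structural subunit, the centres lay at -123 bp for SMARCAD1 and -92 bp for CBP. Pros26 (Prosbeta6), Prosbeta7 and CG17331 (Prosbeta4) were the exceptions of this ring. Their entries were all of the class overlapEnd, in which the peak covers the end of the gene and not its start. The centres lay at 1099 bp (SMARCAD1) and 1103 bp (CBP) from the start of Pros26, at 1506 bp (SMARCAD1) from that of Prosbeta7 and at 2660 bp (CBP) from that of CG17331.

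The ATPases of the base had the lowest shares of the 5 groups of the common particle, with 2 of 6 starts for CBP, 1 for SMARCAD1 and 0 for both, although each group is small. The CBP centre lay at -81 bp at Pros26.4 (Rpt2) and at -272 bp at Rpt3. At Pros45 (Rpt6) the SMARCAD1 centre lay at -295 bp, and the nearest CBP peak was 6487 bp from the start. The second copy of this gene, Rpt6R, showed the reverse, with a CBP peak at -151 bp and the nearest SMARCAD1 peak at 4061 bp. The other covered paralog, Prosbeta2R2, had the CBP centre nearest to its start of all 21 genes, at -37 bp.

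CBP covered the start of all 4 other genes of the base. These encode the large scaffolds Rpn1 and Rpn2 and the ubiquitin receptors Rpn10 and Rpn13. The centres lay at -674 bp for Rpn1, 51 bp for Rpn2, -208 bp for Pros54 (Rpn10) and -2169 bp for CG13349 (Rpn13). SMARCAD1 covered the start of Rpn2, with its centre at 61 bp, and of Rpn13, at -2027 bp. Rpn2, the longest gene at 3797 bp (3R, 24979185 to 24982981 in the coordinates of the tables), had nearly the same peak in both libraries: the SMARCAD1 peak spanned 1092 bp and the CBP peak 1044 bp, all of it within the former. Among the 9 SMARCAD1 starts it was the one with the centre downstream.

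In the lid, CBP covered 6 of 9 starts and SMARCAD1 3. The CBP centre lay at -158 bp at the deubiquitinase gene Rpn11, where the nearest SMARCAD1 peak was 894 bp away, and at -618 bp at Mov34 (Rpn8), its partner in the enzyme. At Rpn5 the centres were at -150 bp for SMARCAD1 and -285 bp for CBP. At Rpn12 they were at -765 and -780 bp, with peaks of 2394 and 2337 bp that extended to the start of Smn, the survival motor neuron gene. Rpn7 was covered by SMARCAD1 alone, at -260 bp, with the nearest CBP peak 1988 bp from the start. The CBP centre lay within the gene at Rpn6 (239 bp) and at Rpn9 (432 bp). The start of Rpn9 was only just inside its CBP peak, which reached 97 bp upstream and 962 bp downstream. Rpn3, another lid subunit, had only peaks over its end, centred at 2022 bp for SMARCAD1 and 2062 bp for CBP.

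Over the covered starts, the centre lay upstream of the start at 18 of 21 genes for CBP and at 8 of 9 for SMARCAD1. This is 85.7% and 88.9%, against 67.2% and 67.4% of other covered starts. At other covered starts of genes of the same range of length it was 76.6% and 77.3%. An upstream centre was thus common at other genes as well, and no interval was computed for these shares. The median distance was -158.5 bp for CBP (95% interval -272 to -81 bp) and -259.5 bp for SMARCAD1 (-1104 to -123 bp). At other covered starts the medians were -129 bp (3585 genes) and -190.8 bp (2754 genes), within these intervals. At the 7 starts under both antibodies, the SMARCAD1 centre minus the CBP centre was -978.5 bp at Prosbeta2, -127.5 bp at Pros28.1, -78.5 bp at Prosalpha7, -31 bp at Prosbeta3, 9 bp at Rpn2, 14.5 bp at Rpn12 and 135.5 bp at Rpn5. The signs were mixed, with SMARCAD1 the more upstream at 4 genes and CBP at 3. At 6 of these genes the 2 centres were no more than 200 bp apart, against 63.6% of the 1894 other genes under both. No interval was computed for this share of 7 genes. The CBP peak lay wholly within the SMARCAD1 peak at 6 genes, and at Pros28.1 94.4% of it did. Such nesting was not counted at the other genes. The SMARCAD1 peak was the wider one at 6 of the 7 genes (85.7%), against 86.2% of the other genes under both.

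The covering peaks had lower median widths than those at other starts, but for SMARCAD1 the interval of the width includes the other medians. The median width was 1124 bp for CBP (1044 to 1329 bp), against 1559 bp at other covered starts, and 1212 bp for SMARCAD1 (1092 to 3039 bp), against 2139 bp. The median reach into the gene was 393 bp for CBP (354 to 474 bp), against 501 bp at other starts. For SMARCAD1 it was 424 bp (296 to 606 bp), against 609 bp. Both medians of the other starts lie just above the intervals. The median reach upstream was 757 bp for CBP (548 to 872 bp), against 807 bp, and 865 bp for SMARCAD1 (662 to 2834 bp), against 1045 bp, both within the intervals. Of the 21 CBP peaks, 19 reached between 199 and 573 bp into the gene, and only those of Rpn9 (962 bp) and Rpn6 (1115 bp) went further. The proteasome genes are also shorter, with a median length of 1407 bp against 2477 bp for the other genes. At covered starts of genes of the same range of length, the median width was 1281 bp for CBP and 1694 bp for SMARCAD1, and the reach into the gene was 422 and 453.5 bp. All of these medians lie within the intervals of the proteasome genes. The part of gene length in the widths was not tested further.

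**Figure D3:**
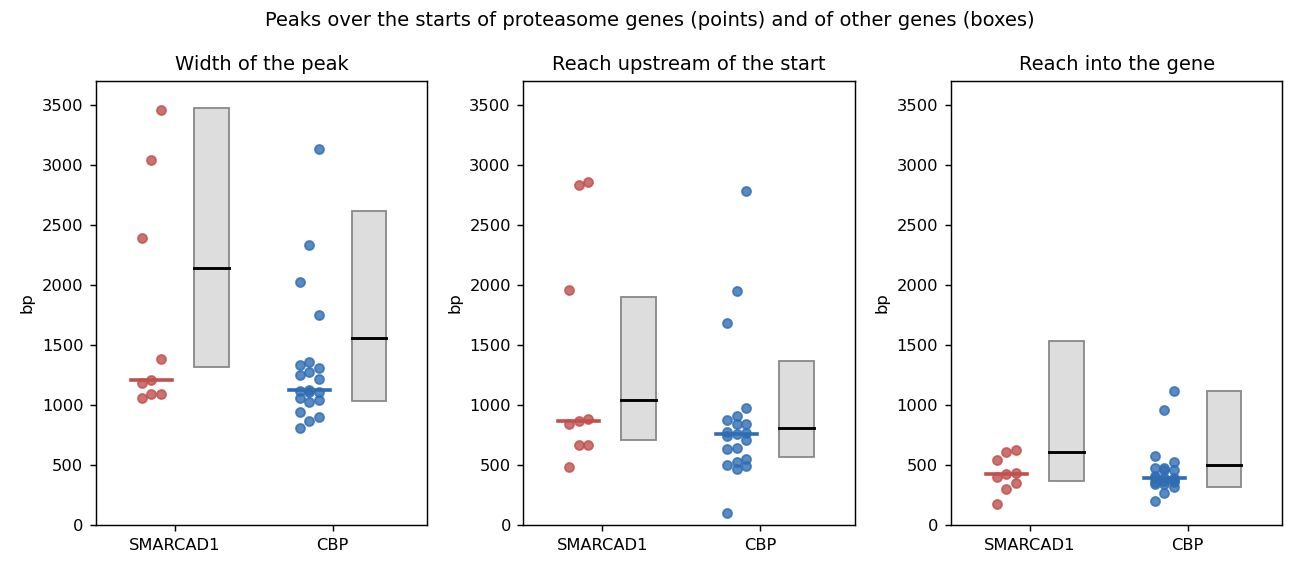
Width of the covering peak, its reach upstream of the start and its reach into the gene, in bp, for SMARCAD1 (9 genes) and CBP (21 genes). Points are proteasome genes with their median as a coloured line, and boxes show the quartiles and median of other covered starts; the median CBP width is 1124 bp at the proteasome genes and 1559 bp at the others.

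Most of the covered starts shared their peak with the start of a neighbouring gene. For CBP this held for 15 of 21 genes (71.4%, against 69.0% of other covered starts) and for SMARCAD1 for 8 of 9 (88.9%, against 68.9%). In all of these cases a neighbour was on the opposite strand, against 94% of such cases at other genes for CBP and 89.8% for SMARCAD1. At 13 of the 15 CBP genes (86.7%, against 92.4% of other genes with such a neighbour) the pair was head to head. For SMARCAD1 it was so at all 8 genes, against 92.2%. At Rpn6 the neighbour ave starts within the gene and runs out over its start. The starts of a pair were 91 to 1743 bp apart, with a median of 226 bp under CBP peaks, against 340 bp for other genes. The closest pair was Prosbeta5 with the polarity gene dgo, and the widest was Rpn12 with Smn. The CBP centre lay between the starts of the pair at 10 of the 15 genes (66.7%, against 46.8%). Examples are Prosbeta1 with Rrp42, at -88 bp from the one and -110 bp from the other, Prosbeta2 with mRpL39 (-126 and -166 bp) and Pros26.4 with CG13599 (-81 and -37 bp). Rrp42 and Mtr3, the neighbour of Rpn1, are both subunits of the RNA exosome. At such pairs the tables cannot assign the peak to one gene or the other. No intervals were computed for the shares at neighbours, which rest on few genes. The 6 CBP peaks that covered no other start were those of Pros25, Prosalpha5, Pros54, Rpt3, Rpn11 and Rpt6R, and the single such SMARCAD1 peak was that of Pros45.

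Peaks over the ends of proteasome genes were as frequent as peaks over the starts for SMARCAD1. Of its 24 entries, 11 were overlapEnd, 9 overlapStart, 2 upstream (Rpn9) and 2 downstream, at 5678 bp from the start of Prosbeta2 and 6907 bp from that of Rpn7. Of the 31 CBP entries, 21 were overlapStart, 9 overlapEnd and 1 downstream (Rpn7, 6926 bp). No entry of either antibody was of the class inside (peak within the gene, 17.6% of other SMARCAD1 and 18.6% of other CBP entries). Nor was any of the class includeFeature (gene within the peak, 8.23% and 5.68%). The other genes are longer (median 2477 bp against 1407 bp). No class shares were computed for the same range of length, so the part of gene length in these contrasts was not tested. SMARCAD1 covered the end of 11 genes (42.3%, 25.5 to 61.1%), against 30.8% of the other genes with an entry and 32.3% of those of the same range of length. For CBP it was 9 genes (34.6%, 19.4 to 53.8%), against 21.8% and 23.7%. Both backgrounds lie within the intervals. The end was covered by both antibodies at 8 genes, by SMARCAD1 alone at Pros45, Prosbeta7 and Rpn5, and by CBP alone at Pros26.4.

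Nearly all of these peaks also covered the start of a neighbouring gene. This was so in 10 of 11 SMARCAD1 entries (90.9%, against 53.3% of other overlapEnd entries) and in 9 of 9 CBP entries (against 74.3%). In 9 SMARCAD1 entries (81.8%, against 48.5% of other overlapEnd entries) and all 9 CBP entries (against 71.4%) that gene followed on the same strand. The shares here rest on few entries and carry no interval. The SMARCAD1 centre was at -242 bp from the start of Orc6, a subunit of the origin recognition complex that follows Prosalpha7 after 177 bp, and the CBP centre was at -97 bp. Behind Rpn12, CG4169 starts after 103 bp, with centres at -24 and 19 bp from its start. Behind Pros26, CG4098 starts after 177 bp, with centres at -102 and -98 bp, although the start of Pros26 itself had no peak. At Pros45 the covered start is that of CG1801, which lies on the opposite strand, starts 141 bp before the end of Pros45 and overlaps it. The exception was Prosbeta7, whose SMARCAD1 peak covered its end and that of the convergent gene CG1161 and no start. Pros29 and Rpn11 had a peak of both antibodies over the end but a peak of CBP alone over the start. Their end peaks covered the starts of CG10543, 523 bp beyond Pros29, and CG31918, 155 bp beyond Rpn11.

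At the 14 starts covered by CBP alone, the nearest SMARCAD1 peak lay at a median distance of 3287 bp (845 to 21673 bp), against 5485 bp at the 1691 other genes covered by CBP alone. It was within 1000 bp at 3 of them, Pros25, Pros29 and Rpn11, which is 21.4% against 9.05%. No interval was computed for this share of 14 genes.

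Among 8 genes for its assembly, activation and regulation, CBP and SMARCAD1 each covered the start of 3 (37.5%, 13.7 to 69.4%), against 24.0% and 17.9% of the other protein-coding genes, and both covered that of Usp14 (CG5384), a deubiquitinase bound to the base. CBP alone covered REG, the nuclear activator of the core (-499 bp), and Uch-L5 (Uch-L3 in the tables, -5 bp), the other deubiquitinase of the base. SMARCAD1 alone covered rngo (CG4420, -51 bp), the fly homolog of the protease Ddi1, and Pomp, the chaperone of core assembly, whose whole gene lay within a peak of 3481 bp. At cnc, the homolog of the mammalian factor that induces proteasome genes, neither antibody covered the start listed in the tables. Its entries lay at 31466 bp (CBP, inside) and 35827 bp (SMARCAD1, over the end). Among 8 genes for ubiquitin and its delivery, CBP covered 4 starts (50%, 21.5 to 78.5%) and SMARCAD1 2 (25%, 7.15 to 59.1%). The intervals of both lists include these shares of the other protein-coding genes. Both covered the polyubiquitin genes Ubi-p63E (752 bp for SMARCAD1, 650 bp for CBP) and Ubi-p5E (-260 and -310 bp). CBP alone covered RpS27A (23 bp), a ubiquitin fusion gene, and TER94 (360 bp), the segregase that extracts ubiquitylated proteins.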

How the data were processed

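According to the methods and labels, the authors mapped 1 library per antibody with BWA, called peaks for each with MACS against a control, and annotated them with ChIPpeakAnno. What they deposited is, for each peak and gene, the position, class and distance, in bp. All entries were used. The entries with a gene (5749 of 5859 for SMARCAD1, 6418 of 6495 for CBP) were recomputed from the positions. All gave the printed distance (gene start to peak midpoint). Whether the peak covers the start also matched the printed class in all of them. The remaining distinctions between classes, such as overlapEnd, were taken as printed. The methods name dm6, but 0 of the 26 genes have the start position of Release 6 and 1 has its end, so coordinates are printed as in the tables. RefSeq names (Release 6) served for names alone, and 5906 of 6016 (98.2%) were matched. Promoter sequences were not used here, so the motif search was not run. A neighbour of 1 member is not reported here.

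The members and gene lists were chosen with earlier results of these data known, and every gene the rule takes is named. Where a gene had several covering peaks, the one with the nearest centre was taken. Python 3.11.15, numpy 2.4.6, pandas 2.3.3, scipy 1.17.1 and matplotlib 3.10.9 were used, with Wilson intervals for shares and binomial intervals for medians, and the steps were tested on simulated data.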

Additional observations from a re-analysis of the deposited data

How the results depend on the processing

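Of 27 recomputed values, 20 stayed within the interval of the reported median or within 1.5 times the reported count. Some of them could not change and say nothing on robustness. The class overlapStart alone gave the same counts because no proteasome gene had an entry of the class includeFeature. All covering peaks gave the same distances because no proteasome gene had more than 1 covering peak. With 1 entry per peak, that labelled by the annotation as the nearest start, the covered starts were 4 for SMARCAD1 and 11 for CBP. A shared peak is then given to 1 gene of a pair. The label does not follow the peak centre. The CBP centre lay at -126 bp from Prosbeta2 and -166 bp from mRpL39, yet Prosbeta2 was not so labelled. Pros26.4 was labelled at -81 bp, although CG13599 lay at -37 bp. With the central 500 bp of each peak they were 4 and 13, which is by construction fewer; both antibodies then covered 3 starts, SMARCAD1 alone 1 and neither 12. As shares, the labelled nearest start gave 15.4% for SMARCAD1 and 42.3% for CBP, against 28.1% and 37.3% of the other genes. The CBP contrast was small under that label. The central 500 bp gave 15.4% and 50%, against 15.9% and 27.6%, so that the SMARCAD1 shares were nearly equal. CBP covered more proteasome starts than SMARCAD1 under every alternative run. Leaving out Prosbeta2 and comparing with genes of the same range of length were chosen after seeing the data. Without Prosbeta2 the median difference of the centres was -11 bp in place of -31 bp. No pair of starts under both antibodies had peaks free of other starts, so that alternative gave no value, and the promoter motif search was not run. Widths at peaks free of other starts rest on 1 SMARCAD1 gene (1183 bp) and 6 CBP genes (1168.5 bp). No pairing of replicate libraries was possible because only 1 library was made per antibody. The centres were compared by gene, without tests. The unknown depth limits every count of absent peaks.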
